A study of Arabidopsis thaliana with 2 samples.

Results

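Regions of LHY occupancy were described at 8 Arabidopsis thaliana genes, which were ELF3 (AT2G25930), ELF4 (AT2G40080), LUX (AT3G46640), BOA (AT5G59570) and the ELF4-like genes ELF4-L1 (AT2G29950), ELF4-L2 (AT1G72630), ELF4-L3 (AT2G06255) and ELF4-L4 (AT1G17455). The 8 genes were chosen by their locus identifiers from 27444 nuclear protein-coding genes, with earlier results of these data known. Their regions were those with a midpoint inside the gene or within 2 kb of either end. This rule took 15 of the 14718 regions in the list. LUX stood in the gene table as PCL1, with LUX as a synonym, and the other 7 under the names used here.

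The regions came from chromatin immunoprecipitation and sequencing of whole seedlings of the WS ecotype, with an antiserum against the full-length LHY protein. Seedlings were 2 weeks old and were taken 2 h after dawn, so 1 time of day and a mixture of all seedling cell types were sampled. There was 1 wild-type library and 1 library from the LHY knock-out lhy-21, and each pooled 9 immunoprecipitated samples, so no value has a replicate check and no test was possible. The list holds places where wild-type reads exceeded lhy-21 reads, with 1 score a region. The sources used here do not give the scale of this score, which therefore only ranks and describes regions within the list, and a gene without a region is not thereby shown to be unbound.

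LHY is a MYB-type transcription factor of the plant clock that is most abundant in the morning and is known as a repressor of genes expressed in the evening. ELF3, ELF4 and LUX proteins form the evening complex, a repressor that acts around dusk and in the early night. ELF3 is the scaffold of the complex, LUX is its DNA-binding GARP-type member, ELF4 is a small protein that binds ELF3, and BOA is a close relative of LUX. The ELF4-like genes encode small proteins with the same conserved domain as ELF4.

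LHY regions lay at every one of the 8 genes except ELF4-L1. The highest scores were 91.2 at ELF3, 85.2 at BOA and 67.1 at LUX. Scores of 42.8 at ELF4-L4 and 31.0 at ELF4 followed, and ELF4-L2 and ELF4-L3 had 15.6 and 11.3. Wider regions tended to score higher across the list. Against regions within 10% of its width, the strongest region was above 90.7% at ELF3, 83.7% at ELF4-L4, 83.2% at BOA and 69.8% at LUX. The order of the genes was thus different by that measure. Among all protein-coding genes 52.3% had a region by the same rule, against 7 of 8 here. A region among the 1000 strongest of the list, which score at least 58.0, was found for 6.07% of all genes and for 3 of the 8, namely ELF3, LUX and BOA. The median of the highest score was 42.8 over the 7 genes with a region and 15.7 over all 14348 genes with one. No uncertainty can be put on the order of the scores, since neither genotype has a second library.

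**Figure D1:**
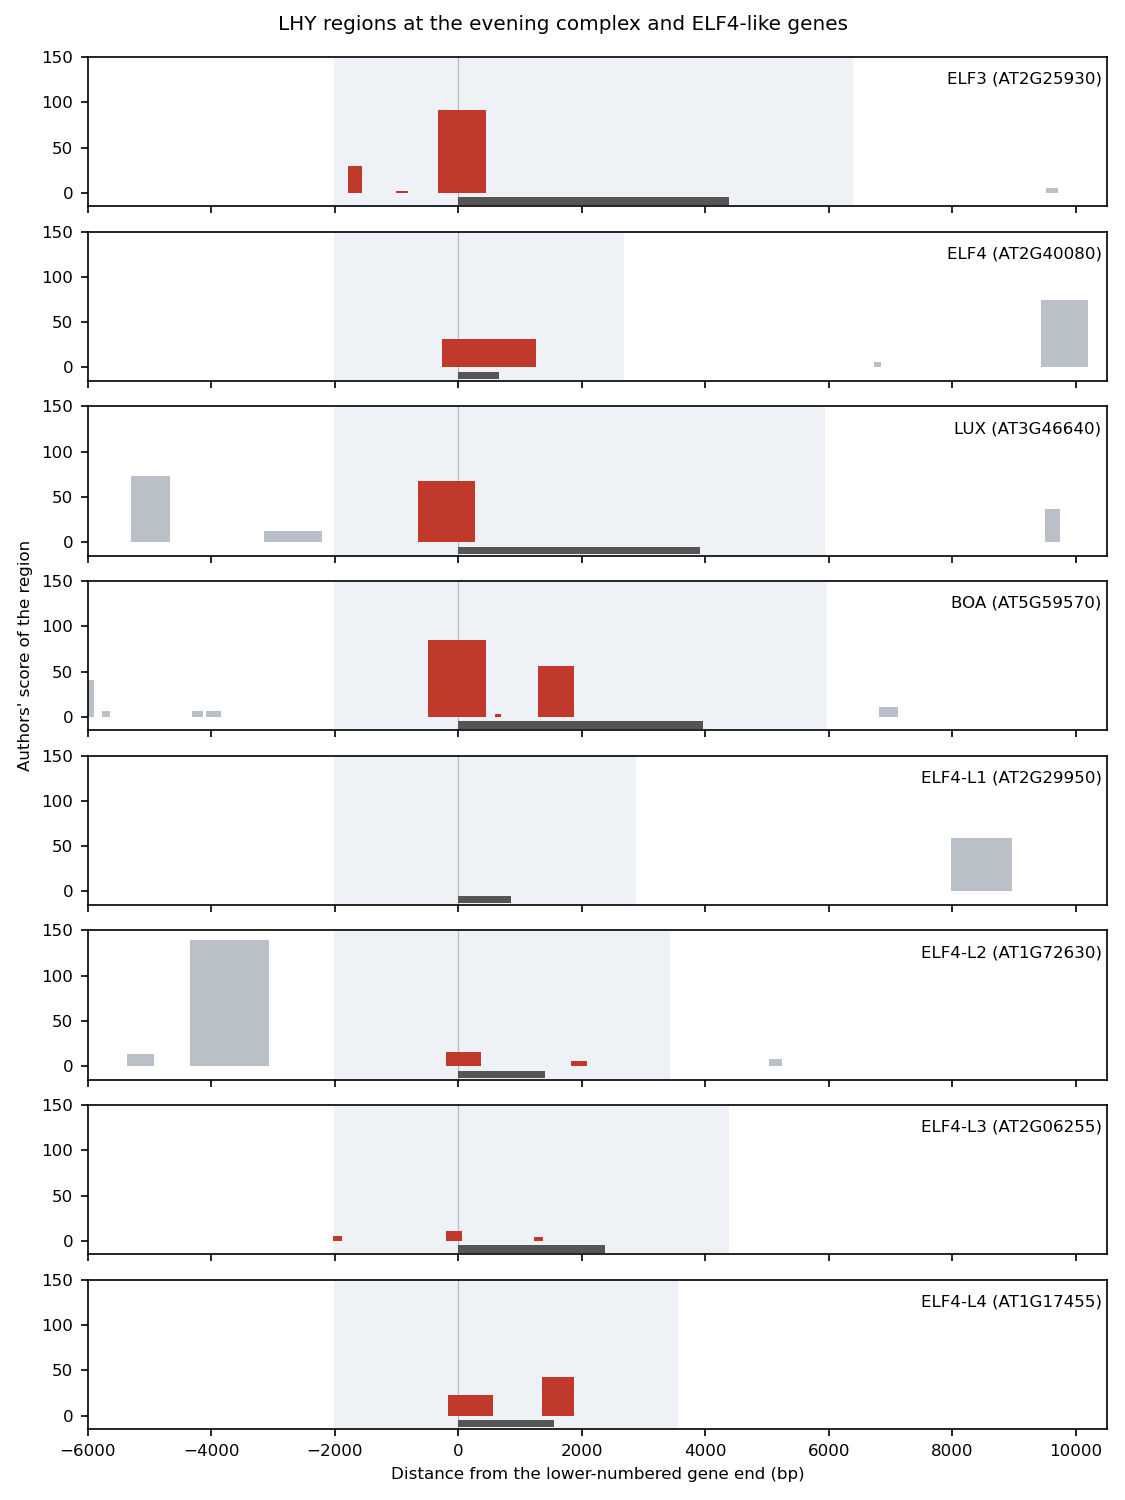
Position and score of regions around each gene. The x axis gives the distance in bp from the lower-numbered end of the gene, the y axis the authors' score; dark bars are the genes, the shaded band is the gene with 2 kb on either side, red blocks are the 15 regions taken and grey blocks are regions outside the limit. A region covers the lower-numbered end of 7 of the 8 genes, and ELF4-L1 has none in its band.

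The strongest regions lay at the ends of these genes. A region covered the lower-numbered end of 7 of the 8 genes, and in all 7 the region with the highest score covered an end. Over all 27444 protein-coding genes, of which 14348 had a region within 2 kb, 6067 (22.1%) had a region across at least 1 end. This share counts genes without a region, so it is not matched to the 7 genes. The midpoint of the strongest region lay between 21.5 and 200.0 bp from the nearest end in these 7 genes, whereas the median of that distance over all genes with a region was 443 bp. That median includes genes whose strongest region lay nearer to a neighbour, which was so for none of the 7. The gene table gives no strand, so the start of transcription was not told apart from the end of the gene. Of the 15 regions, 7 had their midpoint inside a gene and 8 outside. A midpoint inside the gene was found for 6 of the 8 genes, all but LUX and ELF4-L1, and for 16.1% of all genes, whose median length was 2078 bp. The 8 genes ranged from 660 bp (ELF4) to 4381 bp (ELF3), and longer genes offer more room for a midpoint.

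ELF3 had the highest score of the 8 genes. Its main region lay on chromosome 2 from 11058617 to 11059383 (TAIR9) and ranked 297 of 14718 by score. It reached from 327 bp outside the lower-numbered end to 439 bp inside it, and no other protein-coding gene lay within 2 kb of its midpoint. The highest score at ELF3 was above that of 96.2% of genes with a region. A pair of weaker regions lay outside the same end. One, from 11057931 to 11058131, was centred 913 bp out with a score of 2.12, close to the lowest score in the list, 2.00. The other, from 11057149 to 11057387, was centred 1676 bp out with a score of 29.5, above 81.6% of all regions, and was nearer to AT2G25920, at 1206 bp, than to ELF3. The rest of the gene and the flank beyond its other end held no region.

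LUX and BOA, the related DNA-binding proteins, had main regions of nearly the same width, 923 and 930 bp, each across the lower-numbered end. The LUX region, on chromosome 3 from 17182381 to 17183303, scored 67.1 and ranked 726. It ran from 661 bp outside the gene to 261 bp inside, and its midpoint was 200.0 bp from LUX and 282 bp from the neighbouring gene AT3G46630. The LUX region also covered the end of AT3G46630 that faces LUX, so its position does not separate these genes. The BOA region, on chromosome 5 from 24003402 to 24004331, scored 85.2 and ranked 378. It ran from 486 bp outside to 443 bp inside, with its midpoint 21.5 bp from BOA and 1909.5 bp from SRR1, a gene known for a part in phytochrome B signalling and the clock. The highest scores were above those of 91.2% (LUX) and 95.3% (BOA) of genes with a region.

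The pair differed inside the gene. BOA held another strong region from 24005170 to 24005766, centred 1580 bp from the lower-numbered end, with a score of 56.1 and rank 1072, and a weak one between them from 24004473 to 24004575 with a score of 2.77. The strong internal region was centred 481 bp from UGT76E1, a glycosyltransferase gene whose annotated span begins 2061 bp from the lower-numbered end of BOA, so both genes overlap in the table. LUX is overlapped in the same manner by AT3G46650, which begins 2411 bp from that end, but no region had its midpoint inside LUX. With 1 library a genotype, whether this difference exceeds variation between plants cannot be known.

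**Figure D2:**
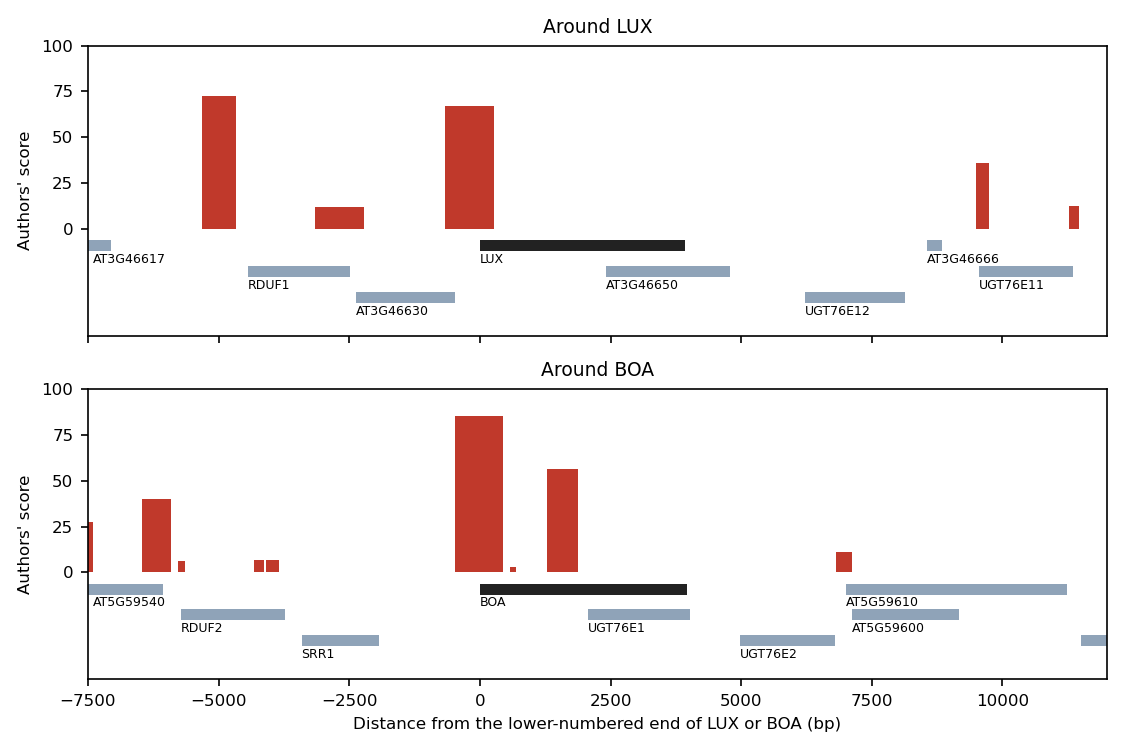
Regions and neighbouring protein-coding genes around LUX and BOA. The x axis gives the distance in bp from the lower-numbered end of LUX or BOA, the y axis the authors' score; red blocks are regions, black bars LUX and BOA, and blue bars other genes. Both genes have a block across the left end (923 and 930 bp wide, scores 67.1 and 85.2), and a block at 1580 bp, with a score of 56.1, is present at BOA without a counterpart in LUX.

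ELF4 had a single region of unusual extent. The region, on chromosome 2 from 16734021 to 16735557, was 1537 bp wide, wider than 99.4% of all regions and 91st by width, and it covered all 660 bp of ELF4 with 273 bp beyond one end and 604 bp beyond the other. A region that covers the whole gene was found for 0.128% of protein-coding genes, 35 in number. ELF4 is short for a gene, which makes full cover easier. The score of 31.0 was above that of 82.7% of all regions and ranked 2544. Across the list wider regions scored higher (Spearman correlation 0.73 over the 14718 regions, which share the same 2 libraries), and against the 97 regions within 10% of its width, with a median of 58.3, the ELF4 region was above 18.6%. By the same measure ELF4-L2 was also low, above 24.03% of regions of like width. The strongest regions of the other genes were above 90.7% (ELF3), 83.7% (ELF4-L4), 83.2% (BOA), 69.8% (LUX) and 63.2% (ELF4-L3). The only other protein-coding gene within 2 kb of the midpoint was AT2G40085, 1528 bp away.

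**Figure D3:**
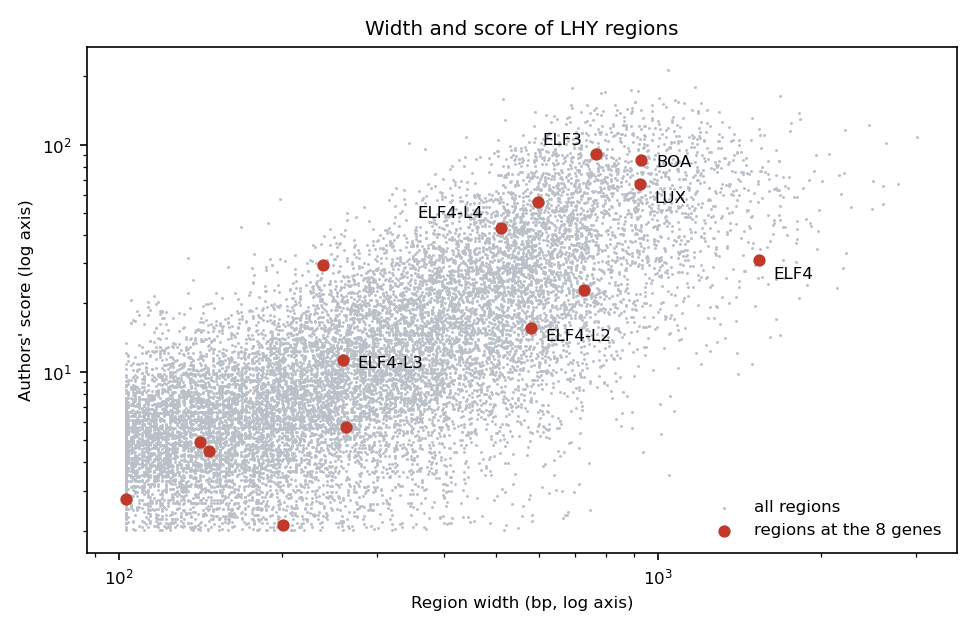
Width and score of all 14718 regions (grey) and of the 15 regions at the 8 genes (red), both on log axes, with width in bp; the strongest region of each gene is labelled. ELF4 lies at the right (1537 bp) with a score of 31.0, below most regions of that width, and ELF4-L2 is also low for its width, while ELF3, BOA, LUX and ELF4-L4 lie in the upper part of the cloud.

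The 4 ELF4-like genes differed among themselves. ELF4-L4 had the highest score of them, and regions at both ends. The region at the higher-numbered end, on chromosome 1 from 5998413 to 5998922, scored 42.8 and ranked 1649. Its midpoint was 68.5 bp outside ELF4-L4 and 97.5 bp from the next protein-coding gene, TRFL3, so its position does not separate these genes. The region at the lower-numbered end, from 5996888 to 5997616, scored 22.96 and was 729 bp wide. It was centred 195 bp inside ELF4-L4 and 219 bp from AT1G17450, and it also covered the end of AT1G17450 that faces ELF4-L4.

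At ELF4-L2 the strongest region, on chromosome 1 from 27343972 to 27344552, had its midpoint 81.0 bp inside the lower-numbered end. Its score of 15.6 was above the highest score of 49.4% of genes with a region. AT1G72620 and AT1G72640 lay 1796 and 1894 bp from that midpoint. A region beyond the other end, from 27345997 to 27346259, scored 5.74 and was 28.0 bp from AT1G72640 but 543 bp from ELF4-L2. ELF4-L3 had 3 regions on chromosome 2, none within 2 kb of another protein-coding gene and none scoring above 11.3. The one across the lower-numbered end, from 2457370 to 2457629, scored 11.3, near the median of 10.12 over all regions. Those from 2458791 to 2458937, inside the gene, and from 2455543 to 2455683, 1960 bp outside, scored 4.48 and 4.92.

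ELF4-L1 had no region in its gene or flanks. The nearest one was centred 7614.5 bp away, on chromosome 2 from 12775557 to 12776546, with a score of 59.1, and lay 156.5 bp from AT2G29970. A greater distance to the nearest region was measured for 18.5% of protein-coding genes. ELF4-L1 lies almost wholly within the annotated span of CYP5, and neither CYP5 nor the neighbouring ABCG31 had a region by the same rule.

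**Figure D4:**
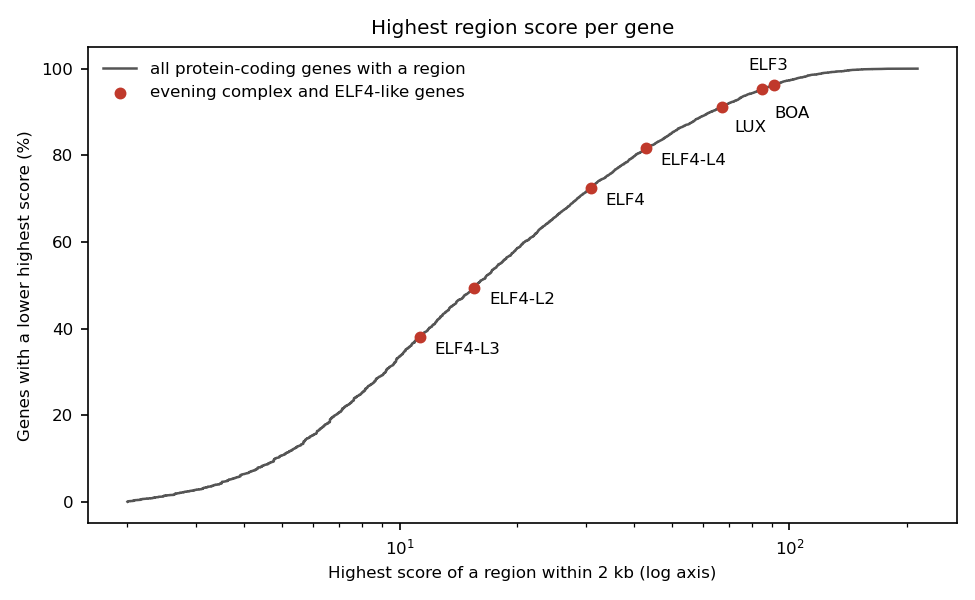
Highest score of a region within 2 kb for each of the 14348 protein-coding genes with one (line) and for 7 of the 8 genes (red). The x axis is the score on a log axis, the y axis the percentage of genes with a lower highest score; ELF3, BOA and LUX lie above 90% of genes, ELF4-L2 and ELF4-L3 at 49.4% and 38.0%.

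Several of these genes carried more than 1 region. ELF3, BOA and ELF4-L3 had 3 each, against 9.34% of all genes with 3 or more, and ELF4-L2 and ELF4-L4 had 2 each. In all, 5 of the 8 had at least 2, where 23.6% of all genes did. Regions covered 33.0% of ELF4 and its flanks, 22.4% of those of ELF4-L4, 20.5% for BOA, 15.6% for ELF4-L2, 14.4% for ELF3, 11.7% for LUX and 8.13% for ELF4-L3. Of the 15 regions, 11 also fell within 2 kb of another protein-coding gene, or 73.3%, where 62.8% of all regions near genes did. The ELF3 main region and all 3 at ELF4-L3 were the exceptions. For 2 of the 15, the weaker flanking ones at ELF3 (29.5) and ELF4-L2 (5.74), the neighbour was nearer.

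Just inside the limit of 2 kb lay the ELF4-L3 region at 1960 bp (4.92) and the ELF3 region at 1676 bp (29.5). Just outside it lay a region 2685 bp from LUX with a score of 11.9, one 3007 bp from BOA with 11.3, and one 3708 bp from ELF4-L2 with 139, the 37th strongest of the list.

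Genes known as targets of the evening complex were examined with the same rule. The gene lists were also chosen with earlier results of these data known, so their counts are descriptions only. All 6 of those listed had a region, where 52.3% of all protein-coding genes did, with PRR9 at 81.2, the growth regulator gene PIF4 at 57.1 and the photoperiod gene GI at 46.8 the highest. The median was 40.7, with PIF5 lowest at 12.2. Of 10 listed genes for proteins that bind or modify the complex, 4 kinase genes were left out because their symbols are not in the gene table. Of the remaining 6, 5 had a region, against the same 52.3% of all genes. TZP, a zinc finger protein gene of light signalling, scored 88.4, and the ubiquitin ligase genes XBAT35 and XBAT31 scored 84.1 and 73.2. COP1, which encodes a ubiquitin ligase that acts in darkness, had none, and the photoreceptor gene PHYB had 15.4. Among these genes and the 8, the score closest to ELF3 was that of TZP (a difference of 2.80), to BOA that of XBAT35 (1.10) and to LUX that of XBAT31 (6.12), each out of 17 genes compared.

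**Figure D5:**
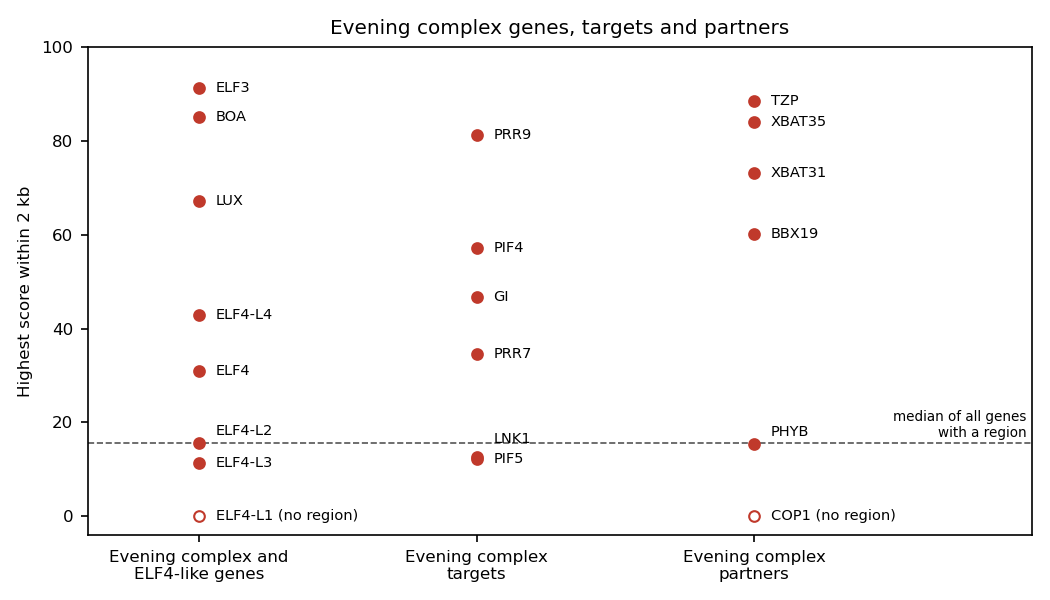
Highest region score within 2 kb (y axis, the authors' score) for the 8 evening complex and ELF4-like genes, 6 target genes and 6 partner genes. Open circles mark genes without a region, drawn at 0, and the dashed line is the median (15.7) of all genes with one; the 3 highest points are ELF3, TZP and BOA.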

How the data were processed

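The authors deposited 1 list of genomic regions, and the score of each is theirs. Bowtie, the peak caller MACS2 (2.0.10.09132012) and the build TAIR9 are named in the submitters' processing notes. The sources used here do not give thresholds, duplicate handling, read numbers or the scale of the score, so depth is unknown. Positions are TAIR9, counted from 1.

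Genes came from a RefSeq table of assembly TAIR10.1, without strand. Both builds have the same nuclear sequence, and gene coordinates are not printed. With midpoints unmoved 34.8% lay inside genes, and with shifts of 500 or 1000 bp between 47.2% and 58.0% did. Assignment was done in Python 3.11.15 with pandas 2.3.3. It was tested only on simulated regions beyond the lower-numbered end of isolated genes, not inside genes or near several. A region could count for several genes.

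The 8 genes and the gene lists were chosen with earlier results of these data known. Named were all 8 genes, genes sharing their regions, and in each list the 3 highest and those without a region; PIF5, PHYB and neighbouring genes that share no region (such as CYP5, ABCG31 and AT3G46650) were added after their values were seen. No test was run. Motif searches and protein comparisons that had been planned were not done, as sequences were not used here.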

Additional observations from a re-analysis of the deposited data

How the results depend on the processing

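Flanks of 500, 1000 and 3000 bp and any overlap in place of the midpoint left 7 of the 8 genes with a region. So did assignment to the nearest gene only and regions scoring above the median. Under these settings the region count stayed within 1.5 times of 15. It ranged from 10 (regions scoring above the median) to 16 (flanks of 3000 bp), with 11 for flanks of 500 bp. Over the alternatives that keep the full list, all 49 recomputed highest scores of single genes, including those from merging regions within 200 bp or taking the region nearest to a gene end, were identical. Changes of flank, overlap and merging could not lower these scores. The strongest midpoints lay at most 200.0 bp from an end, and merging kept the highest score. As the region nearest to ELF4-L1 was 7614.5 bp away, changes of flank and overlap could not alter the count of 7 genes either. The strongest 10% of regions left 3 genes and 4 regions, and the 1000 strongest left 3 genes and 3 regions; fewer regions enter by construction. The share of all protein-coding genes with a region was 36.5%, 43.2% and 60.3% with windows of 500, 1000 and 3000 bp, 53.8% with overlap, 34.4% with the nearest gene only, 34.5% above the median score, 8.71% in the strongest 10% and 6.07% in the 1000 strongest. The 2 alternatives on motifs were not run. Read depth is unknown, so weak regions cannot be weighed by their reads.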

Other observations

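The following genes were picked after their values were seen. LUX and BOA have like-named neighbours in the same order, with RDUF1 or RDUF2, which encode related ubiquitin ligases, on the lower-numbered side and UGT76E glycosyltransferase genes on the other. A region with a score of 72.6, on chromosome 3 from 17177733 to 17178373, was centred 548 bp from RDUF1, and the highest score within 2 kb of RDUF2 was 40.2, from a region centred inside the neighbouring AT5G59540. Of the UGT76E genes, UGT76E11 and UGT76E12 near LUX shared a highest score of 36.3, and near BOA UGT76E1 had 56.1, from the region inside BOA, and UGT76E2 had 11.3. The strong region 3708 bp from ELF4-L2 lay on chromosome 1 from 27339827 to 27341119, and the nearest protein-coding gene was AT1G72600, at 145 bp. It also fell within 2 kb of GER1, a germin-like protein gene, and of AT1G72620, which lies next to ELF4-L2. The region covered an end of AT1G72600, of GER1 and of AT1G72620, so its position does not separate these genes.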
